A study of Rattus norvegicus with 10 samples.

Results

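The comparison set strong calorie restriction (CR, 20% and 30%) against mild CR (5% and 10%) in rat gastrocnemius muscle, with the control arrays left out. It used 4 strong CR arrays and 4 mild CR arrays, chosen by the restriction level in the labels, out of 10 arrays in the series. The 4 strong CR arrays were 20% and 30% CR for 1 week and 20% and 30% CR for 1 month. The 4 mild CR arrays were 5% and 10% CR for the same durations. All 8 groups were male Wistar rats on the same powdered AIN-93G diet, 6 weeks of age at the start, fed the stated percentage below the measured intake of freely fed rats. Muscle was taken after a fast of 16 h that every group shared. Each array carried the pooled RNA of the 5 rats of a group, so no group had a replicate array and the spread between single rats was averaged out before hybridization. The p-values below therefore rest on the spread between pools that differ in level within strong CR and within mild CR.

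The labels of 1 array disagreed. Its title and restriction label gave 5% CR at 1 week, while a second line of its description named the control diet, and the 1-week control array carried the opposite line. The array was kept as 5% CR. With the 1-week control array in its place 5 probe sets passed in place of 1 (Nr1d1, Ky, Tpm3 and 2 probe sets of Pfkfb3). The trimmed mean of the deposited signal was 99.1 to 99.6 on the 1-week arrays and 85.8 to 86.3 on the 1-month arrays, so levels are compared within a duration. The ratio of the 3' to the 5' actin control probe set was 1.235 to 1.555 on strong CR arrays and 1.39 to 1.605 on mild CR arrays. The same ratio for hexokinase was 5.46 at 1 week and 3.39 at 1 month on the 10% CR arrays and 1.15 to 2.31 on the other 6 arrays. The markers of the labelled tissue were bright: 7 genes that define muscle fibres had a summed signal of 56203 and 58520 in strong CR and 57775 and 57816 in mild CR at 1 week, and of 44999 and 46045 in strong CR and 38025 and 44931 in mild CR at 1 month.

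Calorie restriction lowers the supply of fuel, and skeletal muscle answers a shortage by shifting from glucose to fatty acids, by releasing amino acids and by restraining growth signals. Muscle also runs a circadian clock, a loop of transcription factors in which BMAL1 and CLOCK switch on their own repressors, the PER, CRY, REV-ERB and DEC proteins, and which meal timing and fasting can reset. Glucocorticoids rise in underfed rodents and act on many muscle genes. The question put to the data was which transcripts stood higher or lower at 20% and 30% CR than at 5% and 10% CR at both durations, and which depended on the duration.

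Nr1d1 fell in strong CR and was the 1 transcript that passed the test. Nr1d1 encodes REV-ERB alpha, a nuclear receptor that represses Bmal1. In strong CR its signal was 138 and 91.6 at 1 week and 98.7 and 57.7 at 1 month (20% and 30% CR, in that order here and below), against 604 and 422 at 1 week and 278 and 231 at 1 month in mild CR (5% and 10% CR, in that order). At each duration both strong CR arrays lay below both mild CR arrays, and the order followed the level of restriction from 5% to 30%. The difference was -1.96 ± 0.18 on the log2 scale (estimate ± SE), 3.88-fold lower in strong CR, with an adjusted p of 0.00173 in limma with Benjamini-Hochberg adjustment over 15521 probe sets. It was -2.16 at 1 week and -1.75 at 1 month. Strong and mild CR were compared in these 15521 probe sets, of which 0 were higher and 1 was lower at an adjusted p under 0.05, a share of 0.00644%. At an unadjusted p under 0.05, 633 probe sets were higher and 714 lower, where chance would give about 776 in both directions together. Nr1d1 did not pass without the mean-variance trend in the limma fit (adjusted p = 0.437), where 0 probe sets passed.

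**Figure D1:**
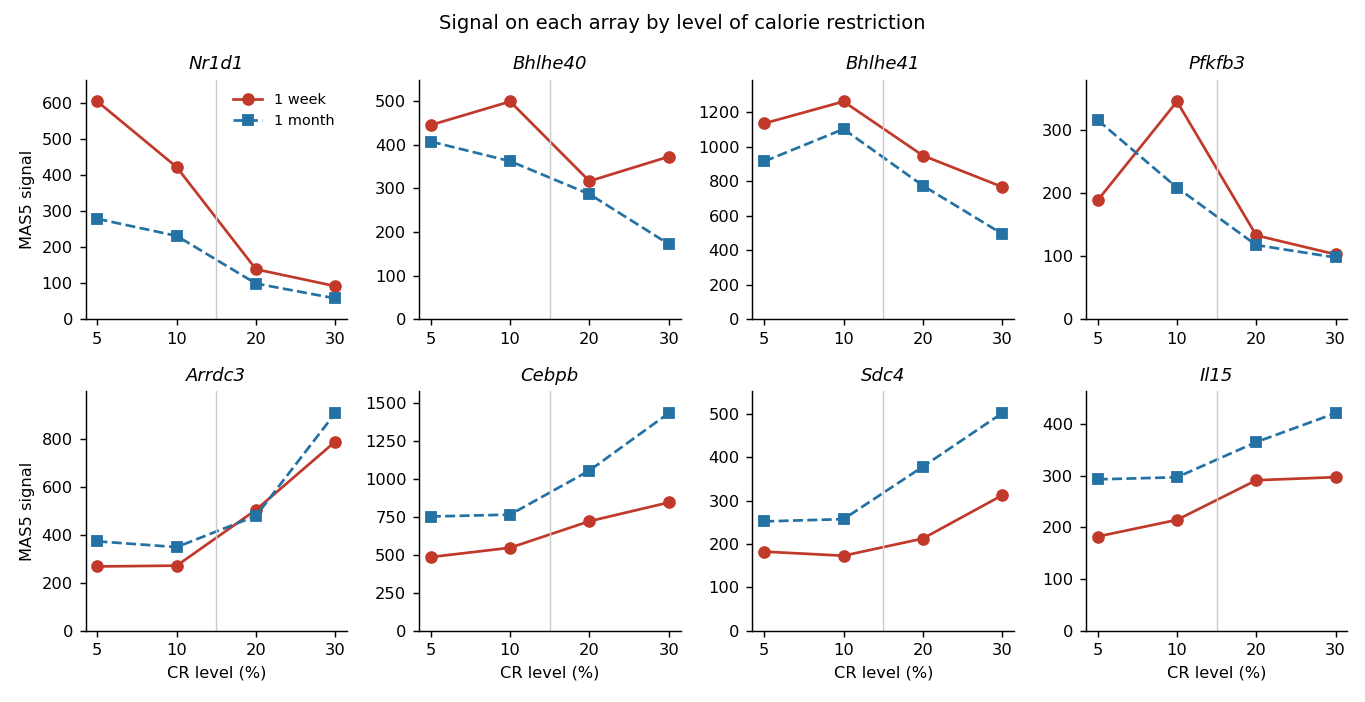
MAS5 signal (vertical axis, from 0) of 8 genes on each array by level of CR (horizontal axis, levels evenly spaced), with 1 point per array, circles and solid lines for 1 week and squares and dashed lines for 1 month; the grey line parts mild from strong CR. The strong CR points of Nr1d1, Bhlhe40, Bhlhe41 and Pfkfb3 lie below the mild CR points of the same duration, and those of Arrdc3, Cebpb, Sdc4 and Il15 above them.

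A second measure needed no test: a probe set was called separated when both strong CR arrays lay on the same side of both mild CR arrays, at 1 week and again at 1 month. By this measure 674 probe sets were higher in strong CR (4.34%) and 714 were lower (4.6%). When a gap of at least 0.25 on the log2 scale was asked for at both durations, 36 higher and 29 lower probe sets were left. These shares are the background for the counts of gene lists given below, where 1 probe set stood for each of 9171 genes and 471 genes (5.14%) were separated upward and 376 (4.1%) downward. The lists were drawn up with earlier results of these data known. Their counts and medians beside this background are therefore descriptions and not tests.

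Some other genes of the clock loop had lower signal in strong CR without passing the test. The PER, CRY and D-box list, which also held Nr1d1, Bhlhe40 and Bhlhe41, was mixed as a whole. Of 12 tested genes 7 had a positive difference and 5 a negative one. Its median was 0.10 over both durations, 0.21 at 1 week and -0.19 at 1 month. Bhlhe40 and Bhlhe41 encode DEC1 and DEC2, repressors that compete for the sites of CLOCK and BMAL1. Bhlhe40 had 316 and 372 at 1 week and 287 and 172 at 1 month in strong CR, against 445 and 499 at 1 week and 407 and 362 at 1 month in mild CR, a difference of -0.62 ± 0.14 (adjusted p = 0.171, limma). For Bhlhe41 the signals were 949.9 and 768 at 1 week and 775 and 496 at 1 month in strong CR, against 1136 and 1264 at 1 week and 916 and 1104 at 1 month in mild CR, a difference of -0.59 ± 0.12 (adjusted p = 0.152, limma). Both were separated at both durations, with the 30% CR array the lowest at 1 month, but neither passed. Clock encodes the partner of BMAL1. Its brightest probe set had 208 and 200.1 at 1 week and 162 and 165 at 1 month in strong CR, against 298 and 233 at 1 week and 219.6 and 235 at 1 month in mild CR, and the probe set with the smallest p had 72.1 and 78 at 1 week and 57.4 and 60.7 at 1 month in strong CR, against 129.6 and 111 at 1 week and 84.6 and 92.7 at 1 month in mild CR. The difference of this second probe set was -0.63 ± 0.10 (adjusted p = 0.126, limma). Of its 2 remaining probe sets, neither was separated.

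None of the PER and CRY genes was separated. Per2 had 291 and 288 in strong CR and 167 and 146 in mild CR at 1 week, where the strong CR arrays lay above the mild CR arrays. At 1 month it had 222 and 191 in strong CR and 198 and 227 in mild CR, where they overlapped. The change between durations was -0.93 ± 0.16 (adjusted p = 0.0363, limma). Dbp, a D-box activator driven by the clock, had 388 and 328 in strong CR and 339 and 333 in mild CR at 1 week, and 239 and 109 in strong CR and 283 and 300 in mild CR at 1 month, where the 30% CR array was the lowest. Bmal1 had 11.7 and 12.5 in strong CR and 35.2 and 35.4 in mild CR at 1 week, and 32.1 and 47.5 in strong CR and 22 and 32.1 in mild CR at 1 month, near the lower end of the tested range, with a change between durations of 2.10 ± 0.42 that did not pass (adjusted p = 0.0514, limma). Of the 12 tested genes of the PER, CRY and D-box list, 0 were separated upward and 3 downward (Nr1d1, Bhlhe40 and Bhlhe41). These 3 are REV-ERB and DEC genes, so the count says nothing of the PER, CRY and D-box genes that name the list. Among the 4 of the BMAL1 list, Clock was separated downward, and Bmal1, Nfil3 and Rora were not separated.

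The promoters of Nr1d1, Bhlhe40 and Bhlhe41 and of Pfkfb3, the gene with the next smallest p on the lower side, are shown because CLOCK and BMAL1 bind the E-box CACGTG. The windows of the other clock genes and named genes were searched but are not printed. A window of 250 bases before the annotated start was taken from RefSeq (build GRCr8) and searched for CACGTG on both strands, which read alike since the motif is its own reverse complement. Matches are in capitals. The motif was in 5.79% of 27457 promoter windows of the same length. The windows are Nr1d1 at chr10:84231813-84232062, minus strand, Bhlhe40 at chr4:143174200-143174449, plus strand, Bhlhe41 at chr4:180569356-180569605, minus strand and Pfkfb3 at chr17:71944683-71944932, plus strand, each written 5' to 3' on the gene's strand.
Nr1d1: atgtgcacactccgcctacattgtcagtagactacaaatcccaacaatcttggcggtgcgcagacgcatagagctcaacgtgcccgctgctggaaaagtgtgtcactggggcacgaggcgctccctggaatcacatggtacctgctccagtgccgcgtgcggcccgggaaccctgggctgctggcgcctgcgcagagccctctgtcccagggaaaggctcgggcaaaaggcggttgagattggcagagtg
Bhlhe40: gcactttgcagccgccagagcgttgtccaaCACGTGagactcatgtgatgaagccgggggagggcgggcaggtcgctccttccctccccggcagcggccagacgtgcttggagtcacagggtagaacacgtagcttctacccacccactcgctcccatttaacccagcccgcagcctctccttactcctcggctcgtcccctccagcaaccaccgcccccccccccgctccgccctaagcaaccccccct
Bhlhe41: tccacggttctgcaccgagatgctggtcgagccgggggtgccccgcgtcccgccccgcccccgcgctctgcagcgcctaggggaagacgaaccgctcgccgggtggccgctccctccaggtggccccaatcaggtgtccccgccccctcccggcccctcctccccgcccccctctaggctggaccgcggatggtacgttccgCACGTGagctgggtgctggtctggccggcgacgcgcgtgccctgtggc
Pfkfb3: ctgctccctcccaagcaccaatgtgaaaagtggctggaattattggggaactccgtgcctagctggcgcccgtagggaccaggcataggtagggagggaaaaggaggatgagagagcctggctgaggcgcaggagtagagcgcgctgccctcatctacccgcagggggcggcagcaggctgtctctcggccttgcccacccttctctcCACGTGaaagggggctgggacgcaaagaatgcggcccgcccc
A match stood 48 to 43 bases before the start of Bhlhe41, 220 to 215 before that of Bhlhe40 and 42 to 37 before that of Pfkfb3. In the Nr1d1 window these letters were not found. Of the 28 named genes 25 had a window and 2 of these held the motif (Pfkfb3 and Slc41a3), and of 14 clock genes with a window 3 did (Bhlhe40, Bhlhe41 and Tef).

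Genes of fuel use were led by Pfkfb3, which makes fructose 2,6-bisphosphate, the activator of phosphofructokinase. Pfkfb3 had 133 and 103 at 1 week and 118 and 97.9 at 1 month in strong CR, against 189 and 345 at 1 week and 316 and 209 at 1 month in mild CR. Strong CR was below mild CR at each duration, while the order of 5% and 10% CR turned between durations. Its difference was -1.19 ± 0.18 (adjusted p = 0.0865, limma), and a second probe set had 72.2 and 67.1 at 1 week and 79 and 56.3 at 1 month in strong CR, against 95.3 and 201 at 1 week and 147 and 107 at 1 month in mild CR. With the 1-week control array in place of the 1-week 5% CR array, Pfkfb3 passed in limma with a difference of -1.51. Of the 16 tested genes of glucose uptake and glycolytic control, 2 were separated upward and 2 downward. The upward pair was Slc2a4, the insulin-responsive glucose transporter, and Pfkfb1, another isoform of the same enzyme. Slc2a4 had 1494 and 1606 at 1 week and 1583 and 1782 at 1 month in strong CR, against 1183 and 1341 at 1 week and 1486 and 1516 at 1 month in mild CR, and Pfkfb1 had 571 and 653 at 1 week and 586 and 645 at 1 month in strong CR, against 416 and 555 at 1 week and 542 and 565 at 1 month in mild CR. Neither passed (adjusted p = 0.31 and 0.448, limma).

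None of the genes of fat handling passed, while the share separated upward was 18.2% for fatty acid uptake, 20% for synthesis and 11.1% for beta-oxidation, against 5.14% of all genes. In the synthesis list, however, 11 of 15 genes had a negative difference, with a median of -0.05. Of 11 lipolysis and lipid droplet genes 0 were separated. Of 13 cholesterol synthesis genes 9 had a negative difference and 1 was separated upward. Angptl4, a fasting-induced inhibitor of lipoprotein lipase, had 134 and 192 at 1 week and 138 and 270.2 at 1 month in strong CR, against 104 and 122 at 1 week and 104 and 74.8 at 1 month in mild CR, a difference of 0.82 ± 0.21 (adjusted p = 0.227, limma). Cd36, the fatty acid translocase, had 1133 and 1214 at 1 week and 1007 and 1066 at 1 month in strong CR, against 871 and 985 at 1 week and 1006 and 947 at 1 month in mild CR. These were the 2 of 11 genes of fatty acid uptake that were separated, both upward. Among 15 genes of fatty acid and triglyceride synthesis, Agpat2, Dgat1 and Dgat2 were separated upward and Srebf1, the lipogenic transcription factor, downward with 257 and 199 at 1 week and 294 and 316 at 1 month in strong CR, against 484 and 317 at 1 week and 346 and 344 at 1 month in mild CR. Pdk4, the kinase that shuts pyruvate out of oxidation in fasting, had 3601 and 4635 at 1 week and 3882 and 5077 at 1 month in strong CR, against 3142 and 4146 at 1 week and 3275 and 3567 at 1 month in mild CR, and overlapped at 1 week. Of 18 genes of mitochondrial beta-oxidation 17 had a positive difference, with a median of 0.06, and 2 were separated upward.

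Transcripts that are known to respond to glucocorticoids, hormones that act through the receptor Nr3c1, had mostly higher signal in strong CR, though none passed. The median over the 14 tested genes was 0.33 on the log2 scale, against 0.01 over all 9171 genes, and 5 were separated upward and 1 downward. At 1 week the median was 0.53 and at 1 month 0.23. Fkbp5, a co-chaperone of the receptor, had 476 and 469 at 1 week and 506 and 698 at 1 month in strong CR, against 279 and 344 at 1 week and 426 and 448 at 1 month in mild CR, a difference of 0.53 ± 0.10 (adjusted p = 0.131, limma). Ddit4, which encodes the mTORC1 inhibitor REDD1, had 188 and 475 at 1 week and 447 and 529 at 1 month in strong CR, against 89.6 and 145 at 1 week and 226 and 297 at 1 month in mild CR, a difference of 1.15 ± 0.24 (adjusted p = 0.152, limma). Tsc22d3, the glucocorticoid-induced leucine zipper, had 1666 and 1889.8 at 1 week and 2202 and 2822 at 1 month in strong CR, against 1593 and 1560.3 at 1 week and 1716 and 1753 at 1 month in mild CR. Cebpd and Glul were the other upward members, and Pik3r1, near the lower end of the tested range, was the downward one with 16.5 and 7.8 at 1 week and 20.5 and 15.7 at 1 month in strong CR, against 21.1 and 25.4 at 1 week and 24 and 22 at 1 month in mild CR. The receptor gene Nr3c1 overlapped, with 612 and 572 at 1 week and 605 and 524 at 1 month in strong CR and 577 and 698 at 1 week and 604 and 562 at 1 month in mild CR.

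None of the other genes named on the higher side passed. Cebpb, a transcription factor of the fasting and stress response, had 720 and 843 at 1 week and 1053 and 1430.2 at 1 month in strong CR, against 485 and 546 at 1 week and 751 and 763 at 1 month in mild CR. It had the second smallest adjusted p of all probe sets (0.0739, limma), with a difference of 0.65 ± 0.09. Arrdc3, an alpha-arrestin that lowers beta-adrenergic receptors, had 503 and 788 at 1 week and 478 and 906 at 1 month in strong CR, against 268 and 271 at 1 week and 372 and 348 at 1 month in mild CR. Its difference of 1.05 ± 0.18 was 2.07-fold (adjusted p = 0.126, limma), and its second probe set had 239 and 377 at 1 week and 195 and 394 at 1 month in strong CR, against 88.2 and 110.4 at 1 week and 176 and 155 at 1 month in mild CR. The related Arrdc2 had 507 and 761 at 1 week and 857 and 962 at 1 month in strong CR, against 269 and 384 at 1 week and 557 and 685 at 1 month in mild CR, with a difference of 0.75 ± 0.14. For Arrdc3 the 30% CR array was well above the 20% CR array at both durations, while 5% and 10% CR differed little. Sdc4, a heparan sulfate proteoglycan, had 213 and 313 at 1 week and 379 and 502 at 1 month in strong CR, against 183 and 173 at 1 week and 252 and 258 at 1 month in mild CR, a difference of 0.66 ± 0.12. Il15, a cytokine made by muscle, had 291 and 297 at 1 week and 365 and 421 at 1 month in strong CR, against 182 and 215 at 1 week and 293 and 297 at 1 month in mild CR, a difference of 0.49 ± 0.08. Phlda3, a p53 target that restrains AKT, and Herpud1, a factor of endoplasmic reticulum degradation, had differences of 0.58 ± 0.10 and 0.68 ± 0.13. Herpud1 had 1.03 at 1 week and 0.34 at 1 month, and this change with duration did not pass (adjusted p = 0.121, limma).

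**Figure D2:**
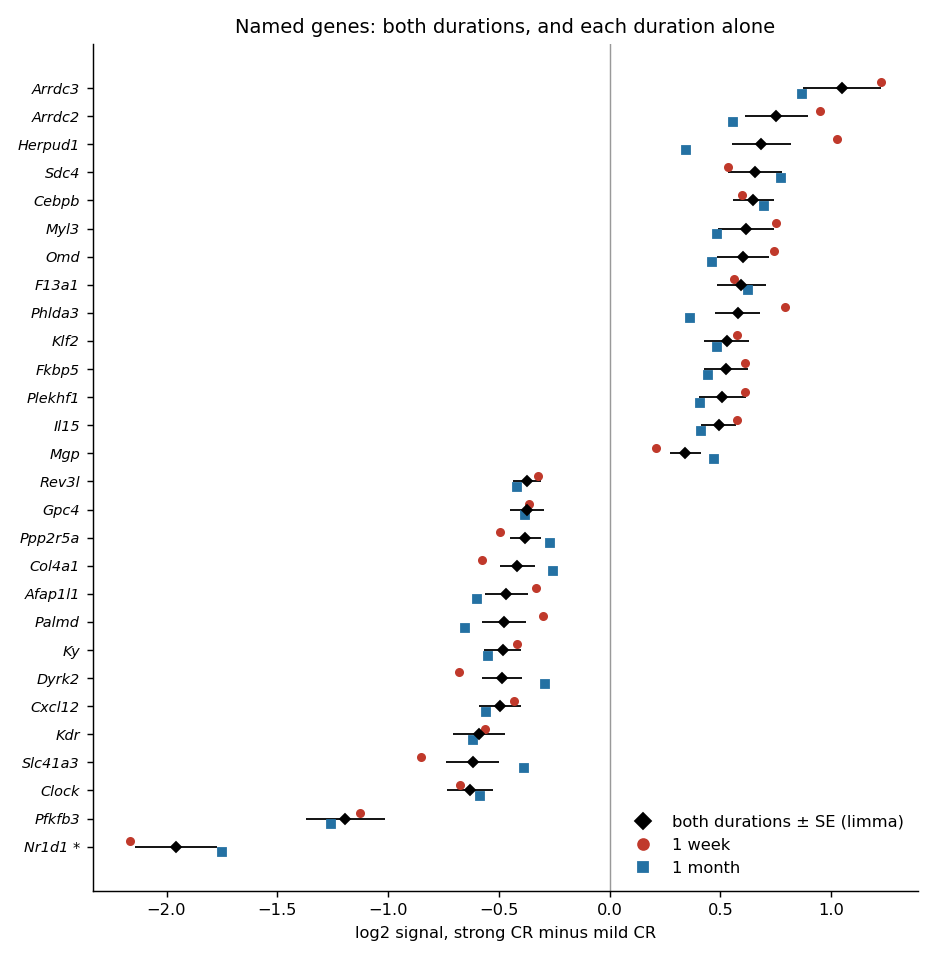
Log2 signal in strong CR minus mild CR (horizontal axis) for the 28 named genes (1 row each): diamonds with bars give the limma estimate over both durations ± SE, circles the difference at 1 week and squares that at 1 month, and an asterisk marks an adjusted p under 0.05. Nr1d1 at -1.96 is the 1 gene that passed, and for all 28 both durations lie on the same side of 0, as the choice of separated genes fixes.

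The genes named on the higher side also included F13a1, Klf2, Omd, Mgp, Plekhf1 and Myl3, with differences of 0.34 for Mgp to 0.62 for Myl3. F13a1, the A subunit of coagulation factor XIII that tissue macrophages carry, had 87.3 and 101 at 1 week and 89.4 and 105 at 1 month in strong CR, against 60.2 and 67.2 at 1 week and 61.4 and 64.3 at 1 month in mild CR. Klf2, a transcription factor of quiescent endothelium, had 189 and 212 at 1 week and 233 and 215 at 1 month in strong CR, against 116 and 157 at 1 week and 162 and 158 at 1 month in mild CR, and of its 3 other probe sets 1 was separated. On the lower side were Ky, which encodes a protein of the muscle Z-disc, Rev3l, the catalytic subunit of DNA polymerase zeta, the kinase Dyrk2, Ppp2r5a, a regulatory subunit of protein phosphatase PP2A, the magnesium transporter Slc41a3, the chemokine Cxcl12, the proteoglycan Gpc4, Afap1l1 and Palmd. Ky had 735 and 796 at 1 week and 618 and 563 at 1 month in strong CR, against 892 and 1172 at 1 week and 857 and 868 at 1 month in mild CR, a difference of -0.48 ± 0.08 (adjusted p = 0.126, limma). Another probe set of Ky overlapped at 1 week, with 165 and 177 in strong CR and 157 and 244 in mild CR, and was lower in strong CR at 1 month. Dyrk2 had 307 and 292 at 1 week and 179.6 and 195 at 1 month in strong CR, against 503 and 459 at 1 week and 235 and 223 at 1 month in mild CR. Its other probe sets were separated in the same direction except 1, which had 247 and 260.1 in strong CR and 246 and 221 in mild CR at 1 month. The difference on this probe set changed with duration, by 1.07 ± 0.17 (adjusted p = 0.0356, limma), from -0.95 at 1 week to 0.12 at 1 month. In a fit of the slope on the level over the same 8 arrays, 21 of 15521 probe sets rose and 18 fell at an adjusted p under 0.05 (limma). Among them were Nr1d1, Cebpb, Pfkfb3, Il15, Arrdc3, Ddit4 and Bhlhe41. The slope reads the same values as the comparison of strong with mild CR, so it is not independent of the choice of these genes. The slope of Arrdc3 was 0.60 per 10 percentage points of CR (adjusted p = 0.000889, limma) and that of Cebpb was 0.36 (adjusted p = 0.000479, limma).

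Genes of the slow fibre programme had a median difference of 0.52, the highest of the 47 lists, and none passed. Of the 10 genes 6 were separated upward, against 5.14% of all genes. Slow fibres are the oxidative, fatigue-resistant fibres marked by beta-myosin. Myh7, which encodes beta-myosin, had 2539 and 2916 at 1 week and 2211 and 1814 at 1 month in strong CR, against 2315 and 1109 at 1 week and 1399.9 and 1239.5 at 1 month in mild CR, a difference of 0.68 ± 0.17 (adjusted p = 0.212, limma). Tnnt1, slow troponin T, had 729.5 and 745 at 1 week and 655 and 544 at 1 month in strong CR, against 563 and 288 at 1 week and 431 and 291 at 1 month in mild CR, a difference of 0.81 ± 0.17 (adjusted p = 0.152, limma). Myl3, the light chain of slow and ventricular myosin, had 1931 and 1912 at 1 week and 1346 and 1323 at 1 month in strong CR, against 1494 and 874 at 1 week and 991 and 919 at 1 month in mild CR. The 10% CR arrays stood apart in these values: Myh7 at 10% CR was less than at 5%, 20% and 30% CR at both durations, and the distance was greater at 1 week. These were also the arrays with the highest 3' to 5' ratios of the hexokinase control (5.46 and 3.39), whose part in the result was not tested. The summed signal of the 10 genes was 14693 and 15589 in strong CR and 12890 and 6875 in mild CR at 1 week, and 10634 and 10103 in strong CR and 8479 and 7213 in mild CR at 1 month.

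The difference of the slow fibre genes depended on which mild CR arrays were used. Against the 10% CR arrays alone the median difference was 0.85 and 5 genes passed, and against the 5% CR arrays alone it was 0.20 and 0 passed. Without the 1-week 10% CR array the median was 0.23, and without the 1-week 5% CR array it was 0.71 with 3 genes past the test. With the 1-week control array in place of the 1-week 5% CR array it was 0.98. The counts of genes that passed read the brightest probe set of each gene. On another probe set Tpm3 also passed against 10% CR alone and without the 1-week 5% CR array. In the contrast of 20% with 10% CR, 4 probe sets passed (0.0258% of those tested), and Tnnt1 and Tnnc1 rose while Nr1d1 and Rundc3a fell. Tnnt1 had a step of 1.25 (adjusted p = 0.0151, limma) and Nr1d1 one of -1.42 (adjusted p = 0.0227, limma). Rundc3a, with 4.3 and 37.1 at 1 week and 4.5 and 21.1 at 1 month in strong CR and 44.2 and 53.3 at 1 week and 16.3 and 43.7 at 1 month in mild CR, had its lowest signal at 20% CR at each duration and overlapped at 1 month. No probe set passed between 30% and 20% CR, where 613 were under an unadjusted p of 0.05, or between 10% and 5% CR, where 461 were. Both counts were below the 776 of 15521 expected by chance at this threshold. How much of the muscle was slow fibre and how much slow fibre RNA each fibre held cannot be told apart in pooled tissue, and the same holds for the cell types below.

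**Figure D3:**
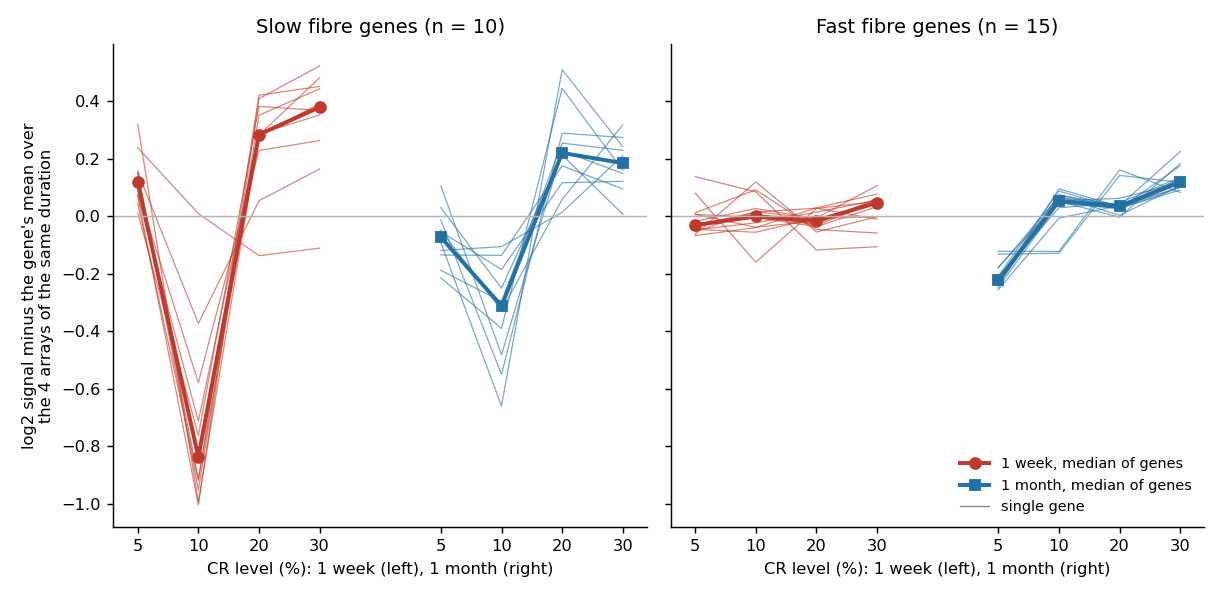
Log2 signal minus the gene's own mean over the 4 arrays of the same duration (vertical axis) by level of CR (horizontal axis) for 10 slow fibre genes (left panel) and 15 fast fibre genes (right panel); thin lines are single genes, and thick lines with circles (1 week) or squares (1 month) are medians over genes. The slow fibre medians are lowest at 10% CR at both durations and above 0 at 20% and 30% CR, while those of the fast fibre genes stay near 0 at 1 week and are lowest at 5% CR at 1 month.

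Fast fibre genes differed less. Their median difference was 0.09 over 15 genes, 0 were separated, and the strong CR arrays summed to 139577 and 144338 and the mild CR arrays to 139250 and 141541 at 1 week. At 1 month the sums were 106559 and 113548 in strong CR and 89231 and 106977 in mild CR, where the 5% CR array was the lowest. Myh1, fast IIx myosin, had 3360.5 and 3387 in strong CR and 4009.5 and 3866 in mild CR at 1 week, and 3357 and 3301 in strong CR and 2777 and 2783 in mild CR at 1 month. Its strong CR arrays were the lower ones at 1 week and the higher ones at 1 month, and the change with duration was 0.48 ± 0.09 (adjusted p = 0.0416, limma). Of its 5 tested probe sets 2 passed, and the other had 137 and 141 in strong CR and 181 and 205 in mild CR at 1 week, and 158 and 153 in strong CR and 85 and 88.6 in mild CR at 1 month, a change of 1.32 ± 0.16 (adjusted p = 0.0119, limma).

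Lists of abundant housekeeping genes had small differences of the same sign. All 25 tested genes of the respiratory chain had a positive difference, with a median of 0.09, and 6 were separated upward (24%). Cox5b, a subunit of cytochrome oxidase, had 6077 and 6099 at 1 week and 4548 and 4657 at 1 month in strong CR, against 5541 and 5507 at 1 week and 3913 and 4405 at 1 month in mild CR, a difference of 0.14 ± 0.05 (adjusted p = 0.439, limma). All 15 tested cytosolic ribosomal protein genes were positive with a median of 0.11, and 5 were separated upward. Of 26 proteasome genes 24 were positive with a median of 0.07, and 5 were separated upward, among them Psmb5 with 2213 and 2237 at 1 week and 1878 and 1908 at 1 month in strong CR, against 1919.9 and 2039.8 at 1 week and 1670 and 1753 at 1 month in mild CR. Signal level moved with these differences: the median difference was -0.12 at 1 week and 0.07 at 1 month in the tenth of probe sets with the lowest signal, and 0.04 at both durations in the tenth with the highest. After quantile normalization the ribosomal median was 0.04 and the respiratory chain median 0.01, and without the 1-month 5% CR array the respiratory chain median was 0.04. The part of signal level in these lists was not tested.

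None of the genes of muscle protein breakdown passed. The FOXO and atrophy list had a median of 0.21 over 10 tested genes with 3 separated upward (Foxo1, Eif4ebp1 and Cebpd). Foxo1 had 137 and 150.3 at 1 week and 119.8 and 142 at 1 month in strong CR, against 135 and 128 at 1 week and 102 and 114 at 1 month in mild CR. The muscle ubiquitin ligase genes Trim63 and Fbxo32 overlapped at 1 week and were higher in strong CR at 1 month, with 1084 and 1278 at 1 week and 1280.2 and 1696 at 1 month for Trim63 in strong CR, against 1170.4 and 1047 at 1 week and 994 and 1194 at 1 month in mild CR. Fbxo32 had 57.7 and 72.1 at 1 week and 98.1 and 116 at 1 month in strong CR, against 57.4 and 88.7 at 1 week and 86.5 and 93.8 at 1 month in mild CR. Eif4ebp1, a repressor of translation that mTORC1 holds in check, had 642 and 726 at 1 week and 650.5 and 769 at 1 month in strong CR, against 496 and 629 at 1 week and 569.6 and 609.9 at 1 month in mild CR. Of 19 genes of IGF and insulin signalling 14 had a negative difference, and Igf2r and Pik3r1 were separated downward. Irs1, an adaptor of the insulin receptor, had 147 and 111 at 1 week and 114 and 65.9 at 1 month in strong CR, against 180.2 and 135 at 1 week and 168 and 124 at 1 month in mild CR, and overlapped at 1 week.

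Vessel transcripts had mostly lower signal in strong CR, though none passed. Kdr, VEGF receptor 2, had 127 and 116 at 1 week and 76.1 and 63.5 at 1 month in strong CR, against 202 and 159 at 1 week and 119.9 and 94.7 at 1 month in mild CR, a difference of -0.59 ± 0.12 (adjusted p = 0.136, limma). Its signal followed the order of the level from 5% to 30% at both durations. Of 13 genes of the VEGF and apelin list 10 had a negative difference, with a median of -0.23, and Kdr, Tmem100 and Cxcl12 were separated downward. Tmem100, a target of ALK1 signalling in endothelium, had 159 and 101 at 1 week and 124 and 112 at 1 month in strong CR, against 194 and 174 at 1 week and 194 and 156 at 1 month in mild CR. The ligand gene Vegfa had 317 and 394 at 1 week and 315 and 389 at 1 month in strong CR, against 319 and 304 at 1 week and 276 and 331 at 1 month in mild CR, and overlapped at both durations. Cxcl12 had 186 and 154 at 1 week and 157 and 127 at 1 month on its named probe set in strong CR, against 242 and 215 at 1 week and 209 and 206 at 1 month in mild CR. A dimmer probe set overlapped at 1 month, with 57 and 48.8 in strong CR and 56 and 57.4 in mild CR. A further probe set was separated downward.

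Markers of endothelial cells also had mostly lower signal, and their part in the result was not tested. Of 11 tested markers 9 had a negative difference, with a median of -0.23 over both durations, -0.33 at 1 week and -0.05 at 1 month. Their summed signal was 1085 and 976 in strong CR and 1311 and 1262 in mild CR at 1 week, and 831 and 774 in strong CR and 889 and 856 in mild CR at 1 month. None of the 11 was at 0 on any array. Pecam1, the adhesion molecule CD31, had 125 and 87.7 in strong CR and 156 and 159 in mild CR at 1 week, and 115 and 106 in strong CR and 97.2 and 87.4 in mild CR at 1 month, so that the direction turned. Kdr was the 1 marker that was separated. It also belongs to the VEGF and apelin list, so the lists are not independent observations.

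Of 21 genes of the collagen and matrix list 0 were separated upward and 4 downward: Col4a1, Col4a2, Col15a1 and Lamc1, which encode components of or next to basement membranes. Col4a1, a chain of type IV collagen, had 712 and 616 at 1 week and 338 and 304 at 1 month in strong CR, against 905 and 836 at 1 week and 402 and 350.4 at 1 month in mild CR, a difference of -0.31 ± 0.08 (adjusted p = 0.219, limma). Its named probe set had 462 and 439 at 1 week and 218 and 229 at 1 month in strong CR, against 669 and 674 at 1 week and 259 and 274 at 1 month in mild CR, a difference of -0.42 ± 0.08. Col4a2 had 205 and 192 at 1 week and 95.1 and 104 at 1 month in strong CR, against 278 and 269 at 1 week and 115 and 119 at 1 month in mild CR. The fibrillar Col1a2 had 3584 and 2807 in strong CR and 3302 and 2457 in mild CR at 1 week, which overlapped, and 2109 and 1730.1 in strong CR and 1054 and 1141 in mild CR at 1 month, where strong CR was higher. Among 12 fibroblast markers 11 had a positive difference and Clec3b and Pi16 were separated upward. Their summed signal was 20019 and 19413 in strong CR and 20073 and 19084 in mild CR at 1 week, and 15024 and 15751 in strong CR and 11583 and 12510.5 in mild CR at 1 month.

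Several macrophage markers stood higher in strong CR, though none passed, and their part in other results was not tested. Of 13 tested genes 5 were separated upward and 0 downward (Cd163, C1qb, C1qc, Lyve1 and Lyz2), with a median of 0.07 at 1 week and 0.54 at 1 month. C1qb, a chain of complement C1q, had 79.7 and 80.7 at 1 week and 78.2 and 110.3 at 1 month in strong CR, against 60.3 and 54.2 at 1 week and 44.2 and 54.2 at 1 month in mild CR, a difference of 0.71 ± 0.15 (adjusted p = 0.152, limma). Lyve1, a hyaluronan receptor of lymphatic vessels and of a class of resident macrophages, had 228 and 271 at 1 week and 235 and 351 at 1 month in strong CR, against 197 and 163 at 1 week and 166 and 190 at 1 month in mild CR, a difference of 0.58 ± 0.13 (adjusted p = 0.161, limma). The general markers Cd68 and Csf1r did not share this. Csf1r overlapped at both durations, and Cd68, near the lower end of the tested range, had 23.8 and 21.4 at 1 week and 26.5 and 13.8 at 1 month in strong CR, against 29.2 and 25 at 1 week and 16.7 and 17 at 1 month in mild CR. The summed signal of the list was 1187 and 1240 in strong CR and 1120 and 1123 in mild CR at 1 week, and 1196 and 1624 in strong CR and 899 and 1015 in mild CR at 1 month, with the 30% CR array at 1 month the highest.

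**Figure D4:**
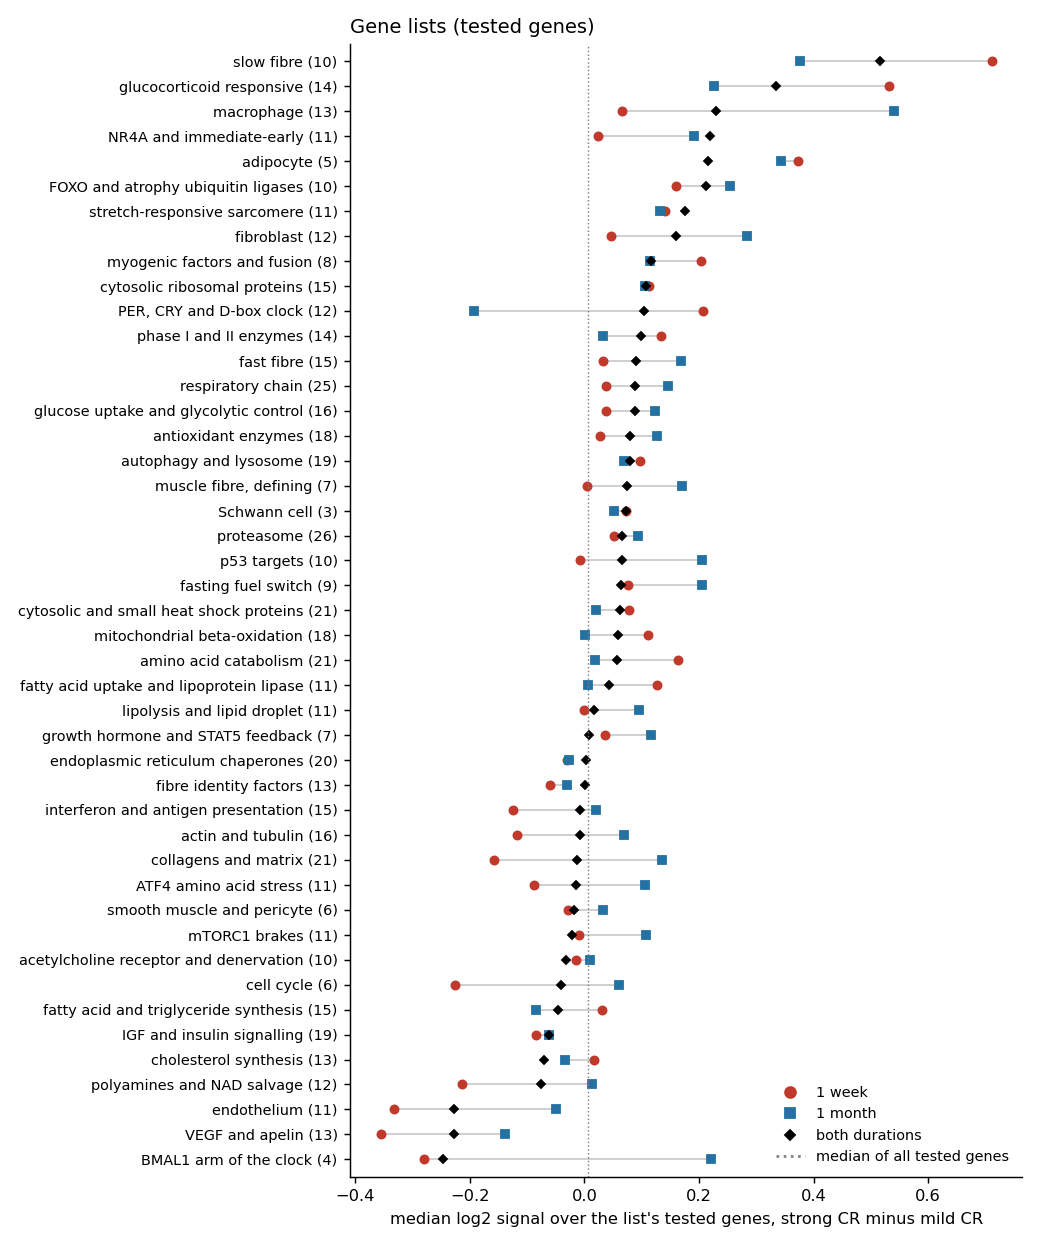
Median log2 signal in strong CR minus mild CR over the tested genes of each list (horizontal axis) for the 45 lists with at least 3 tested genes, whose number is in brackets; circles are 1 week, squares 1 month, diamonds both durations, and the dotted line is the median of all 9171 genes (0.01). Slow fibre genes are at the top with 0.52, and the BMAL1, VEGF and apelin, and endothelium lists are at the bottom with -0.25, -0.23 and -0.23.

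Across all probe sets the differences at 1 week and at 1 month had a correlation near 0. Across 15521 probe sets the difference at 1 week had a Pearson correlation of -0.06 and a Spearman correlation of -0.08 with that at 1 month, as a description across probe sets measured on the same 8 arrays, and 47.5% had the same sign. With the 1-week control array in place of the 1-week 5% CR array the Pearson correlation was 0.04, and with each array centred on its median 38.8% had the same sign. Of the 200 probe sets with the highest difference at 1 week, 60.5% were positive at 1 month with a median of 0.09, and of the 200 lowest, 39.5% were negative. Of the 200 highest at 1 month, 37% were positive at 1 week with a median of -0.16, and of the 200 lowest, 55% were negative. A change of the difference with duration passed for 74 probe sets (0.477%), with 42 higher and 32 lower at 1 month than at 1 week. With each array centred on its median, 52 were higher and 950 lower, since this put the median change over all probe sets at -0.22, against 0.02 as deposited. Without the 1-month 10% CR array 0 passed, with the other arrays left out singly 7 to 36 passed, and with the 1-week control array in place of the 1-week 5% CR array 0 passed. With no filter on signal 3 passed. The median signal of an array was 21 and 20.1 in strong CR and 23 and 22.4 in mild CR at 1 week. At 1 month it was 17.9 and 17.5 in strong CR and 16.8 and 16.3 in mild CR, so the order turned. The part of this shift in the correlation and in the calls by duration was not tested.

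Of the 10 genes with the largest change that passed, 9 were called on 1 probe set and Myh1 on 2. Tubb4a, a beta-tubulin, had 85.4 and 35.3 in strong CR and 148 and 150.5 in mild CR at 1 week, and 116 and 112 in strong CR and 43.9 and 59.6 in mild CR at 1 month, a change of 2.60 ± 0.43 (adjusted p = 0.0357, limma). Its strong CR arrays were the lower ones at 1 week and the higher ones at 1 month. Cav2, a caveolin, had 92.8 and 115 in strong CR and 246 and 277 in mild CR at 1 week, and 183 and 104 in strong CR and 81 and 76 in mild CR at 1 month, a change of 2.15 ± 0.30 (adjusted p = 0.0295, limma). Cd300c2, Ogn, which encodes the matrix proteoglycan osteoglycin, and Myh1, on a second and dimmer probe set, changed in the same direction by 2.10 ± 0.40, 1.41 ± 0.23 and 1.32 ± 0.16. In the other direction, Nup214, a nuclear pore protein, had 35.8 and 35.9 in strong CR and 3.6 and 8.1 in mild CR at 1 week, and 19.2 and 29.8 in strong CR and 36.6 and 31.3 in mild CR at 1 month, a change of -3.23 ± 0.56 (adjusted p = 0.0363, limma). Zyg11b, Tle4, Kif13a and Vwa8 changed by -1.32 ± 0.20, -1.17 ± 0.20, -1.17 ± 0.18 and -1.09 ± 0.20. Of these 10 genes 9 had further tested probe sets, 19 in all, of which 1 passed in limma at an adjusted p under 0.05 (Myh1) and 16 had the same sign as the called probe set. The 2 others of Nup214 had the opposite sign, with changes of 0.23 and 0.35. The 3 others of Cav2 had changes of only -0.28 to 0.12. The mild CR signals of Nup214 at 1 week were below 17.9, the lowest mean signal tested. Over the alternatives its change was -3.82 to -1.07 and passed in 6 of 15 settings, and that of Cd300c2 was 1.02 to 2.42 and passed in 2 of 15.

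**Figure D5:**
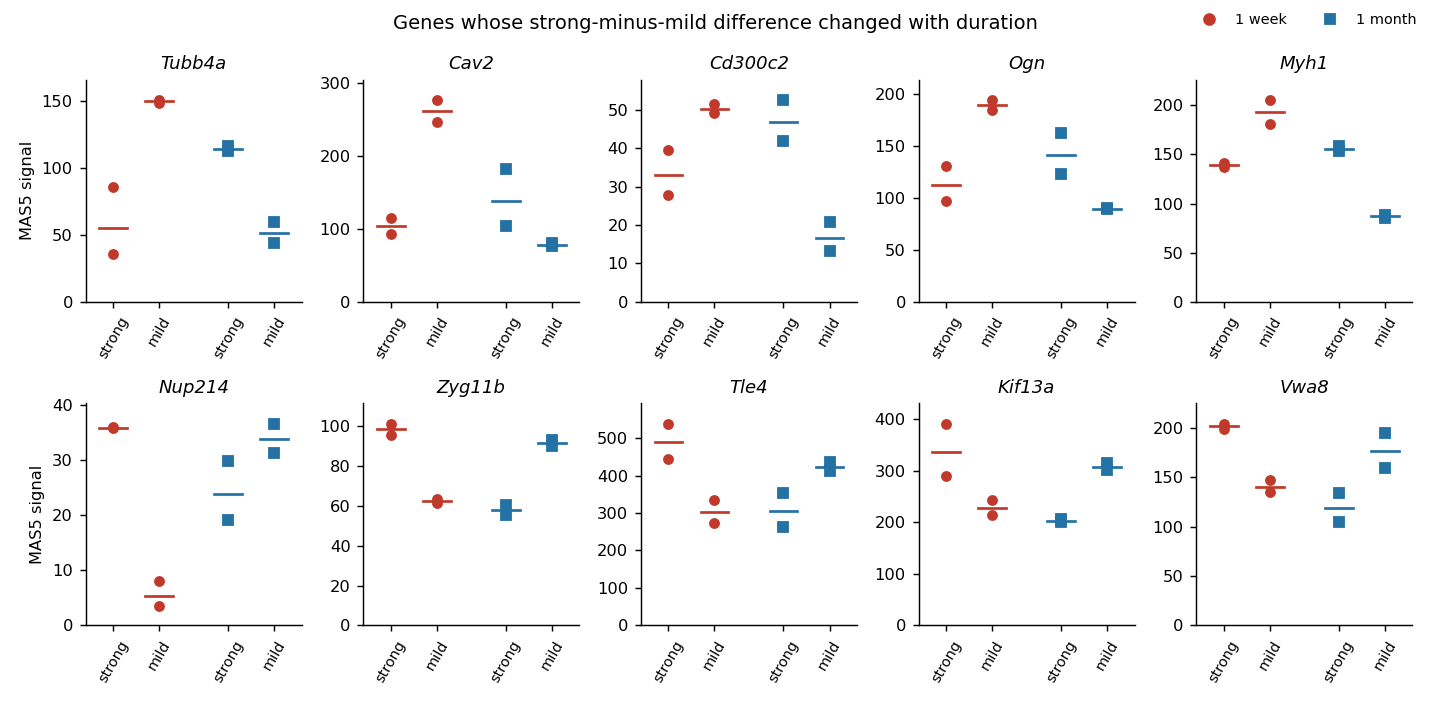
MAS5 signal (vertical axis, from 0) on the 2 strong CR and 2 mild CR arrays of each duration for 10 genes whose difference changed with duration, with 1 point per array and a bar at the geometric mean; circles are 1 week and squares 1 month. For the 5 genes of the upper row strong CR is below mild CR at 1 week and above it at 1 month, and for the 5 of the lower row the order is the opposite.

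Further transcripts whose difference changed with duration included Lum and Ppargc1a, which are named here after their values were seen. Lum, the matrix proteoglycan lumican, had 859 and 842 in strong CR and 1167 and 1121 in mild CR at 1 week, and 659 and 644 in strong CR and 500.5 and 478 in mild CR at 1 month (change 0.84 ± 0.10, adjusted p = 0.0119, limma). Ppargc1a, the coactivator of mitochondrial genes, had 422 and 447 in strong CR and 276 and 224 in mild CR at 1 week, and 250.4 and 273 in strong CR and 276 and 248 in mild CR at 1 month (change -0.80 ± 0.16, adjusted p = 0.0491, limma). At 1 week both strong CR arrays of Ppargc1a were above both mild CR arrays, and at 1 month they overlapped. Its other 2 probe sets did not pass.

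Within strong CR the named genes were ordered by level more often than not. Of the 14 higher genes 10 had more signal at 30% than at 20% CR at both durations, and of the 14 lower genes 8 had less, against 39.9% and 35.3% of all separated probe sets. The named genes were chosen among separated probe sets by their p-values, so this count is a description.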

How the data were processed

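The study hybridized pooled gastrocnemius RNA of 5 rats per group to Affymetrix Rat Genome 230 2.0 arrays. The deposited intensity values are the authors' MAS5 signals from Affymetrix GeneChip Operating Software, on a linear scale, and their scaling target is not given in the sources used here. Signals under 0.1 were set to 0.1 and log2 was taken, with no further scaling. Affymetrix control probe sets were left out, and the 15521 probe sets at or above the 50th percentile of mean log2 signal over the 8 arrays were tested (lowest mean signal 17.9). Strong and mild CR were compared in limma 3.58.1 (R 4.3.3, lmFit and eBayes with trend) with duration as a factor, and Benjamini-Hochberg adjustment at 0.05. Interaction and level contrasts used the same arrays. Residual degrees of freedom (5, 4 and 3) came from arrays of different level, so p-values measure the spread between these pools. The number of arrays limits the precision. The code was tested on simulated data.

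Named genes were those that passed, filled up to 14 per direction with the smallest p among separated probe sets, and up to 5 per direction for the change with duration. The brightest tested probe set stood for each listed gene. Genes were named from the platform annotation, in which 20832 probe sets had 1 gene, 436 several and 9831 none, and 20764 matched RefSeq by gene ID. The members and lists were chosen with earlier results of these data known. Alternatives changed the scaling, the filter, the variance trend, the levels compared and the arrays used.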

Additional observations from a re-analysis of the deposited data

Results flagged for a closer look

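In a screen of 150 groups of 4 arrays by Dixon's gap ratio, 2 exceeded the 95% critical value, where chance flags about 1 in 20 groups. Klf2 had a signal of 116 on the 1-week 5% CR array, apart from the other mild CR arrays (gap ratio 0.892). Ky had a signal of 1172.4 on the 1-week 10% CR array, apart from the other mild CR arrays (gap ratio 0.871). Mild CR arrays of both durations enter these groups, so the offset between durations is part of the range.

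A different effect at 1 month than at 1 week, by the interaction in limma, drew attention to 10 genes. The strong minus mild difference was higher at 1 month by 2.6 for Tubb4a, 2.15 for Cav2, 2.1 for Cd300c2, 1.41 for Ogn and 1.32 for Myh1 on the log2 scale. The change was -3.23 for Nup214, -1.32 for Zyg11b, -1.17 for Tle4, -1.17 for Kif13a and -1.09 for Vwa8. The Nup214 value was -1.07 with 32 added to each signal and -1.76 with the 1-week control array in place of the 5% CR array.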

How the results depend on the processing

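No named gene changed direction between strong and mild CR under the alternatives run. Every named gene was separated at both durations, which fixes its direction whenever levels, durations or single arrays are left out. The count of 1 for strong against mild CR became 0 without the variance trend, 39 as a slope on level, 6 with 30% CR alone, 12 against 10% CR alone, 134 at 1 week alone, 21 at 1 month alone and 5 with the 1-week control array in place of the 5% CR array. Leaving out single arrays gave 1 to 13: 9 without 1-week 5% CR, 2 without 1-week 20% CR and 13 without 1-month 20% CR. The 74 calls by duration became 1002 with median centring (52 higher, 950 lower), 3 with no filter, 0 without the trend, 0 with the control exchange and 0 to 36 leaving out single arrays. The 4 calls for 20% against 10% CR became 2 with no filter, 2 with the 70th percentile filter, 0 without the trend, 2 with the exchange and 0 to 19 leaving out single arrays. Leaving out single arrays gave 0 to 3 for 30% against 20% CR and 0 to 4 for 10% against 5% CR. Probe sets separated at both durations numbered 2148 with no filter, 65 with a gap of at least 0.25 and 2111 to 2508 leaving out single arrays, where fewer arrays had to be parted. The cause of the other changes was not tested. No paired analysis was possible because each array held the pool of a separate group of rats, and duration entered the fits as a factor.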
